A study of Saccharomyces cerevisiae with 25 samples.

Results

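The genes described here are 8 genes of budding yeast (Saccharomyces cerevisiae) that encode small proteins made under stress or on entry into stationary phase: SIP18, GRE1, HSP12, STF2, HSP26, SPG4, DDR2 and SPI1. They were taken by name from the annotation of the array, where each gene had 1 probe set of its own, and they are 8 of the 5656 genes that could be tested. The genes were chosen by name with earlier results of these arrays in view, selected on their log2 levels in wild-type cells after glucose had run out and in the growing not2 null strain, where some of the 8 were high. Those 2 comparisons, and the differences that contain them, are therefore given as values, with no test and nothing read from them. Every other comparison with wild type reuses the same wild-type arrays, so its p-value is not independent support for the list as a whole. The choice favours genes that are high in depleted and low in growing wild-type cells. A null strain is thus more likely to read below wild type after depletion and above it in exponential phase.

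Hydrophilins are small, very hydrophilic, glycine-rich proteins that stay soluble on heating and protect other proteins or membranes when water is lost. SIP18 and GRE1 are a pair of paralogues of this kind, Hsp12 is a membrane-associated relative, and Stf2 was first known as a factor that stabilises the inhibited ATP synthase. HSP26 encodes a small heat shock chaperone that holds unfolding proteins, SPG4 a protein needed for survival of stationary cells at high temperature, DDR2 a multistress protein and SPI1 a GPI-anchored cell wall protein. In growing cells with glucose, protein kinase A keeps the transcription factors Msn2 and Msn4 from such genes, and the Rim15 kinase with Igo1 and Igo2 protects stress mRNAs when glucose runs out. Ccr4-Not is a large complex whose Ccr4 and Caf1 (Pop2) subunits remove poly(A) tails from mRNAs, and its Not subunits have further roles in transcription, translation and ubiquitination.

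The arrays came from single-gene null strains of Ccr4-Not subunits and from the wild type, all grown in a glucose-rich medium. After glucose depletion, harvested 30 min later, there were 2 arrays each of the caf130-labelled, ccr4, not2 and not4 null strains, 1 of caf1 and 2 of wild type (11 arrays). From exponential phase there were 2 arrays each of the caf1, caf130-labelled, ccr4, not2 and not3 null strains, 1 each of not4 and not5, and 2 of wild type (14 arrays). The labels give no strain background, marker or clone number, state that samples were prepared independently, that 3 arrays were discarded by the authors, and that not5 was not sampled after depletion because it flocculates. Cultures were measured in bulk, so fewer cells with a transcript and less of it per cell cannot be told apart.

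The deleted gene was lower on every array of its own null strain than on every wild-type array for 6 of 7 strains. CAF130 was the exception, at 5.63 to 6.60 on the 4 arrays labelled caf130 and 5.30 to 5.76 on the 4 wild-type arrays. The marker gene TRP1 read 7.27 and 7.69 on the depletion arrays labelled caf130 but 3.59 and 5.52 on the exponential ones, 6.73 to 8.89 on the 7 arrays of caf1 and ccr4, and 2.09 to 3.14 on the 14 arrays of the not strains and wild type. TRP1 thus differs in the same direction in every comparison of caf1 or ccr4 with wild type or the not strains, and its part in those results was not tested. These 4 arrays are called caf130-labelled here, and whether they come from 1 strain is not known. Array medians over the tested genes ran from 5.88 to 6.33. In the exponential not3 and wild-type groups the 2 replicates stood apart for stress genes, so results that rest on them are given with and without each array.

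All values are log2 levels of 1 probe set, where a difference of 1 is a 2-fold change, and levels of different genes are not compared. A comparison was called where the p-value, adjusted over all 5656 genes, was under 0.05.

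**Figure D1:**
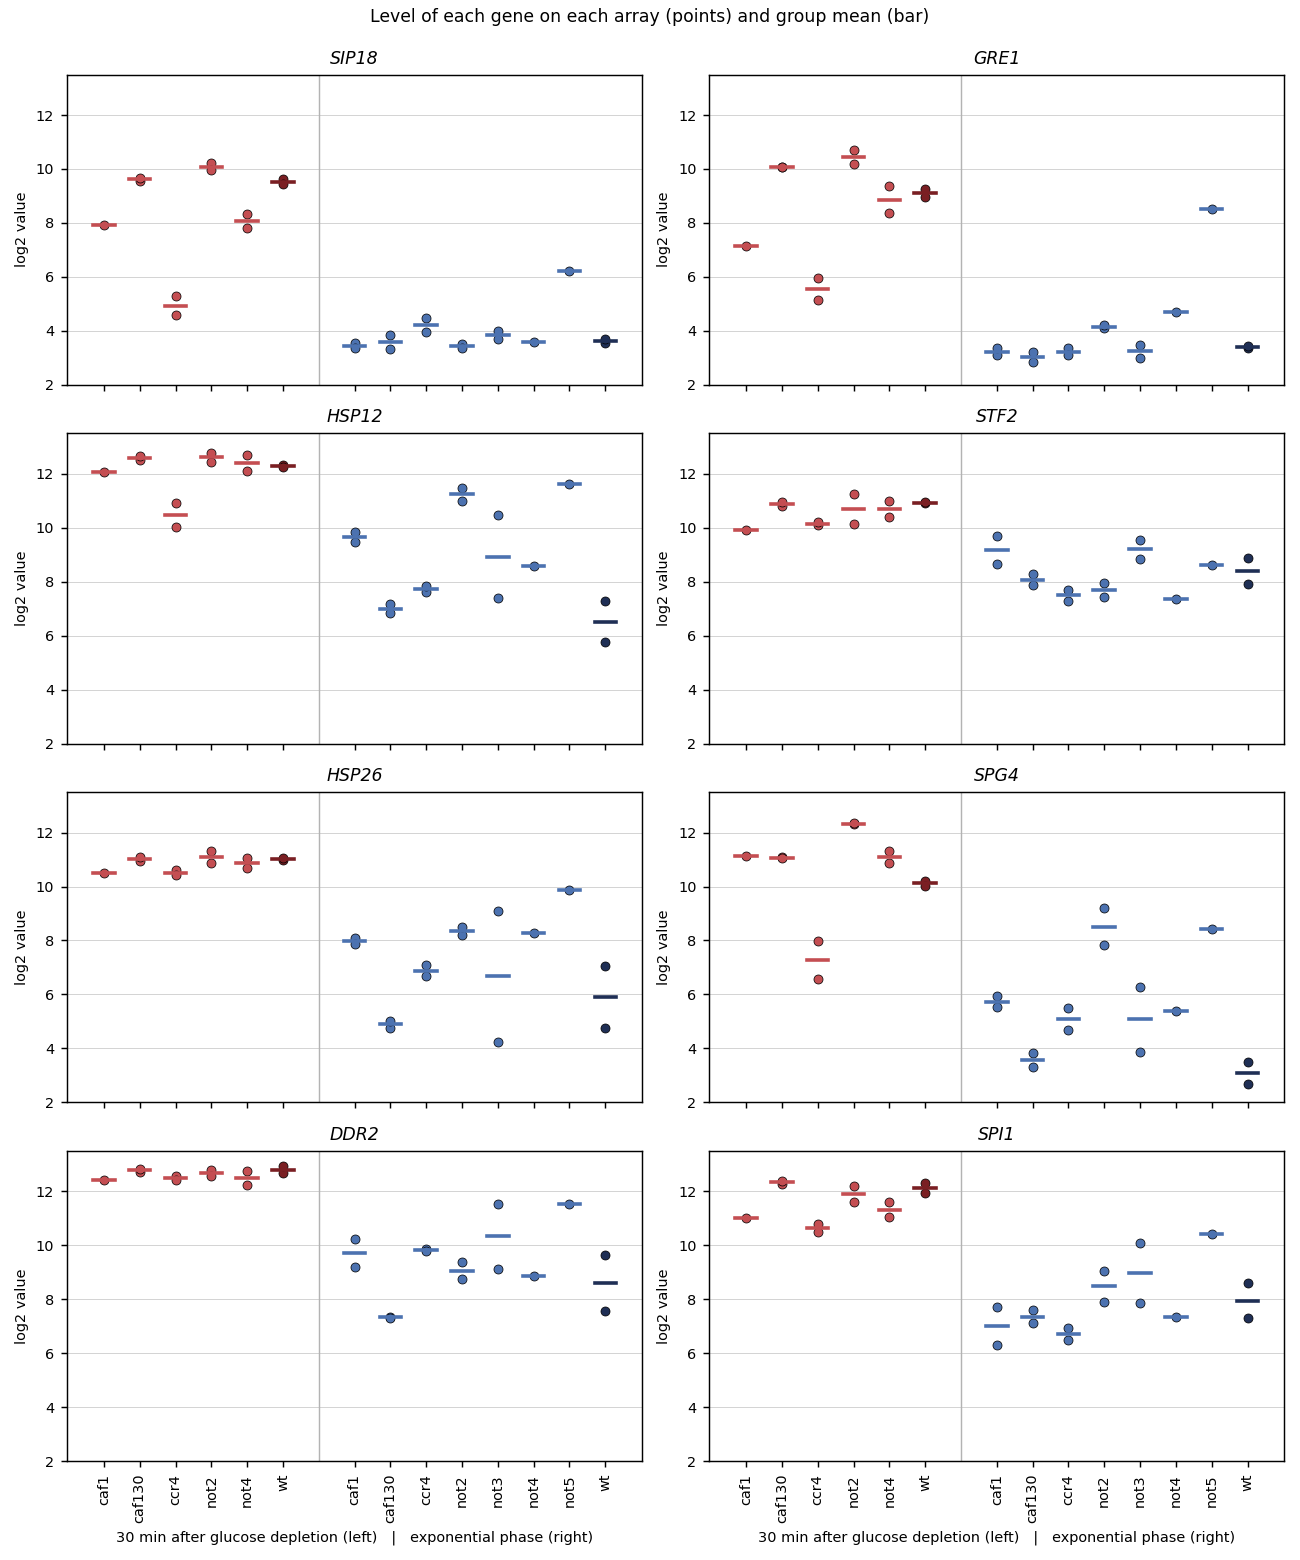
Log2 level of each of the 8 genes (y axis) on each array (points), with the group mean as a bar, for strains after glucose depletion (left of the grey line) and in exponential phase (right of it). The 2 ccr4 depletion arrays are the lowest after depletion for SIP18, GRE1, HSP12, SPG4 and SPI1, as for 13.0% of all genes. The single not5 array is the highest in exponential phase for 6 genes, as for 6.06% of all genes. Its margin over the next array is small for DDR2 (11.54 against 11.52) and HSP12 (11.62 against 11.49).

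SIP18, whose product binds phospholipids, was low in growing cells of all strains but not5. It was high after depletion in all strains sampled there but ccr4. After depletion it read 7.91 in caf1, 9.57 and 9.67 in the caf130-labelled arrays, 5.28 and 4.58 in ccr4, 10.22 and 9.95 in not2, 7.83 and 8.32 in not4, and 9.64 and 9.43 in wild type. In exponential phase it read 3.54 and 3.35 in caf1, 3.85 and 3.31 in the caf130-labelled arrays, 4.48 and 3.97 in ccr4, 3.50 and 3.38 in not2, 4.01 and 3.71 in not3, 3.60 in not4, 6.20 in not5, and 3.56 and 3.69 in wild type. In the order of the 14 groups the ccr4 depletion arrays lay between the ccr4 and the not5 exponential arrays, and every other depletion array was higher than all exponential ones. On 12 of the 14 exponential arrays SIP18 was under the lower quartile of the tested genes, so differences among the low groups rest on dim signals. Of 13 pairs of neighbouring groups in the order, 7 had overlapping arrays.

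GRE1, the paralogue of SIP18, which is induced by osmotic and other stress, followed the same outline. After depletion it read 7.15 in caf1, 10.08 and 10.07 in the caf130-labelled arrays, 5.97 and 5.13 in ccr4, 10.17 and 10.69 in not2, 8.38 and 9.35 in not4, and 9.26 and 8.95 in wild type. In exponential phase it read 3.09 and 3.37 in caf1, 3.22 and 2.84 in the caf130-labelled arrays, 3.36 and 3.09 in ccr4, 4.11 and 4.20 in not2, 3.46 and 3.01 in not3, 4.70 in not4, 8.53 in not5, and 3.37 and 3.44 in wild type. The not5 array lay within the range of the not4 depletion arrays, while the means of caf1, ccr4, not3 and the caf130-labelled arrays were slightly below that of wild type in exponential phase. GRE1 was under the lower quartile on 13 of the 14 exponential arrays, and the not5 array was the exception.

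HSP12, the membrane-associated relative, differed between strains mainly in growing cells. In exponential phase it read 9.49 and 9.85 in caf1, 6.84 and 7.17 in the caf130-labelled arrays, 7.63 and 7.84 in ccr4, 10.98 and 11.49 in not2, 10.47 and 7.38 in not3, 8.58 in not4, 11.62 in not5, and 5.75 and 7.27 in wild type. After depletion it read 12.05 in caf1, 12.50 and 12.66 in the caf130-labelled arrays, 10.93 and 10.01 in ccr4, 12.44 and 12.78 in not2, 12.70 and 12.09 in not4, and 12.31 and 12.26 in wild type. The growing not2 and not5 cells thus lay above the ccr4 depletion arrays, and apart from ccr4 the depletion groups lay close together. On the arrays of those close groups HSP12 was at or above the 99.3rd percentile of the tested genes. Whether its probe set was saturated was not tested.

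STF2, which encodes the ATP synthase regulator, had the smallest change among the 8 genes between the 2 conditions in wild type. After depletion the 9 null-strain arrays ran from 9.90 (caf1) to 11.24 (not2), and wild type read 10.90 and 10.96. In exponential phase the 12 null-strain arrays ran from 7.28 (ccr4) to 9.69 (caf1), and wild type read 7.91 and 8.89. Of 13 neighbouring pairs of groups, 10 overlapped, and no null strain tested passed against wild type in either condition.

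HSP26, the small heat shock chaperone gene, was uniform after depletion and scattered before it. The 9 depletion arrays of the null strains ran from 10.41 (ccr4) to 11.30 (not2), with wild type at 11.00 and 11.05. In exponential phase it read 8.08 and 7.87 in caf1, 4.76 and 5.03 in the caf130-labelled arrays, 6.67 and 7.10 in ccr4, 8.21 and 8.49 in not2, 9.09 and 4.25 in not3, 8.29 in not4, 9.86 in not5, and 4.77 and 7.07 in wild type. Both arrays of not3 and both of wild type were far apart, and the group means of all depletion groups spanned only 0.58.

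SPG4, the stationary-phase survival gene, was above wild type on every exponential array of caf1, ccr4, not2, not3, not4 and not5. It read 5.52 and 5.95 in caf1, 3.83 and 3.31 in the caf130-labelled arrays, 5.49 and 4.68 in ccr4, 7.83 and 9.20 in not2, 6.28 and 3.87 in not3, 5.37 in not4, 8.41 in not5, and 2.67 and 3.48 in wild type. After depletion it read 11.13 in caf1, 11.09 and 11.04 in the caf130-labelled arrays, 7.98 and 6.59 in ccr4, 12.30 and 12.37 in not2, 11.32 and 10.89 in not4, and 10.22 and 10.01 in wild type. The ccr4 depletion arrays were the only null-strain arrays below wild type after depletion, and 1 of them (7.98) lay within the range of the not2 exponential arrays. SPG4 was under the lower quartile on 5 of the 14 exponential arrays.

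DDR2, the multistress gene, lay in a narrow range after depletion, where 11 arrays ran from 12.22 to 12.94 and the group means spanned 0.38. All 11 values were at or above the 99.7th percentile of the tested genes on their array, near the top of the measured range, and whether the probe set was saturated was not tested. In exponential phase it read 10.23 and 9.19 in caf1, 7.36 and 7.32 in the caf130-labelled arrays, 9.88 and 9.80 in ccr4, 9.37 and 8.75 in not2, 11.52 and 9.14 in not3, 8.85 in not4, 11.54 in not5, and 7.58 and 9.65 in wild type. The 2 wild-type arrays enclosed not2 and not4, while not5 and not3 replicate 1 were the highest.

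SPI1, the cell wall protein gene, read 11.03 in caf1, 12.27 and 12.39 in the caf130-labelled arrays, 10.79 and 10.50 in ccr4, 12.19 and 11.59 in not2, 11.04 and 11.61 in not4, and 11.93 and 12.32 in wild type after depletion. The ccr4 arrays were the lowest of the 11. In exponential phase SPI1 read 7.72 and 6.31 in caf1, 7.11 and 7.61 in the caf130-labelled arrays, 6.92 and 6.50 in ccr4, 9.06 and 7.89 in not2, 10.08 and 7.87 in not3, 7.33 in not4, 10.41 in not5, and 7.31 and 8.59 in wild type. Here not5 stood above the rest, and 9 of 13 neighbouring pairs of groups overlapped.

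In wild type all 8 genes were higher after depletion than in exponential phase, by 5.91 for SIP18, 5.70 for GRE1, 5.77 for HSP12, 2.53 for STF2, 5.11 for HSP26, 7.04 for SPG4, 4.20 for DDR2 and 4.18 for SPI1 on the log2 scale. In that comparison 39.0% of all genes were called, 20.3% higher, and nothing is read from the count because this contrast was known when the genes were listed. Changes of the other lists are likewise given as values only. The median was 2.54 in 25 other stress-response genes and 2.33 in 3 other stationary phase genes (SPG1, SPG3 and SPG5). It was 3.93 in the partners of STF2 in ATP synthase inhibition, INH1 and STF1, and 2.9 in 7 other heat shock and disaggregation genes. In 3 paralogues it was 1.09, in 7 other hydrophilins 0.81, in 28 regulators 0.42 and over all genes 0.02.

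**Figure D2:**
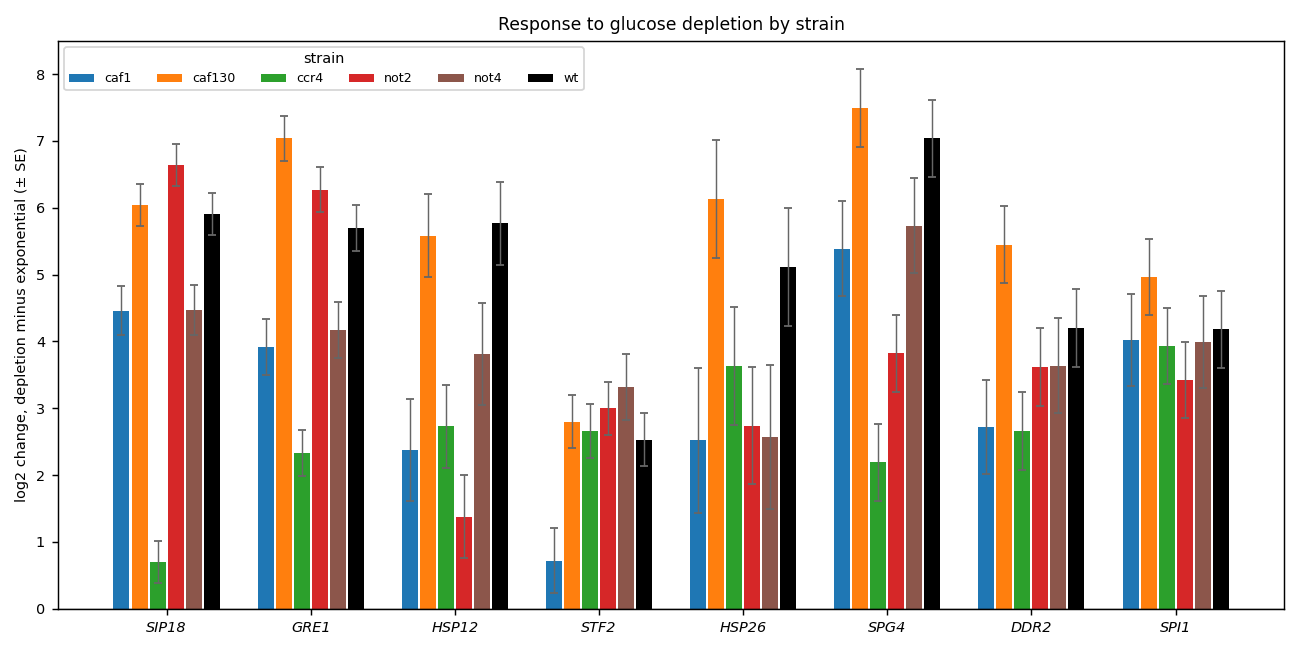
Log2 change between glucose depletion and exponential phase (y axis, depletion minus exponential, error bars 1 SE of the model) for each of the 8 genes in the 6 strains sampled in both conditions. The ccr4 bars for SIP18 (0.70), GRE1 (2.33) and SPG4 (2.19) are the shortest of the 6 strains.

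The null strains raised most of the 8 genes on depletion as well. All 8 rose in the caf130-labelled arrays (50.1% of genes called in either direction, 23.2% higher), where SPG4 rose by 7.49 ± 0.58 (SE, adjusted p = 5.6e-09). TRP1 differed between the 2 sides of this comparison, so a difference of strain and the response to depletion cannot be told apart there. In not2, 7 of 8 rose (44.7% of genes called, 19.3% higher), and HSP12, already high in growing cells, differed by 1.38 ± 0.62 (adjusted p = 0.0758). The growing not2 arrays were among those the genes were chosen on, which makes a rise harder to find there. In not4, 7 of 8 rose (31.1% called, 12.9% higher), with HSP26 at 2.57 ± 1.08 (adjusted p = 0.0761). In caf1, 6 of 8 rose (30.4% called, 16.5% higher), while HSP26 and STF2 differed by 2.52 and 0.72 without passing the test. The rises of HSP12 and DDR2 in caf1 were not called without caf1 exponential replicate 1 (HSP12, adjusted p = 0.0801) and replicate 2 (DDR2, adjusted p = 0.0563), and that of HSP26 in not2 lost its call without either exponential not2 array or without depletion replicate 1 (adjusted p of 0.0505 to 0.086).

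In ccr4, 7 of 8 genes rose on depletion (37.0% of genes called, 23.7% higher), but by less for several of them. SPI1 rose by 3.93 ± 0.57 (adjusted p = 4.12e-05), and STF2 and DDR2 rose by 2.66 each. HSP26 rose by 3.63 ± 0.88 (adjusted p = 0.00346) and HSP12 by 2.73 ± 0.62 (adjusted p = 0.00204). GRE1 rose by 2.33 ± 0.34 (adjusted p = 4.87e-05) and SPG4 by 2.19 ± 0.58 (adjusted p = 0.00632), and the SPG4 call was lost without ccr4 exponential replicate 2 (adjusted p = 0.0678) or depletion replicate 1 (adjusted p = 0.114). SIP18 differed by 0.70 ± 0.31 (adjusted p = 0.0755) and was the only one of the 8 that did not pass.

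The response of ccr4 was also set against that of wild type. The wild-type response was known when the genes were listed, so a smaller response in another strain was favoured in advance, and these differences are given without a test. On the log2 scale the response in ccr4 minus that in wild type was -5.21 ± 0.43 for SIP18, -4.85 ± 0.82 for SPG4, -3.37 ± 0.48 for GRE1 and -3.04 ± 0.87 for HSP12 (SE). It was -1.53 for DDR2, -1.48 for HSP26, -0.24 for SPI1 and 0.13 for STF2. Of all genes, 19.4% were called in this comparison and 7.78% were lower.

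The same difference ran over the 8 genes from -3.39 (HSP12) to -0.16 (SPI1) in caf1, from -0.19 (HSP12) to 1.34 (GRE1) in the caf130-labelled arrays and from -2.53 (HSP26) to 0.79 (STF2) in not4. Over all genes 2.37% were called in caf1, 0.0354% in the caf130-labelled arrays and 4.17% in not4. In not2 it was -4.39 ± 0.87 for HSP12 and -3.22 ± 0.82 for SPG4 (6.93% of genes called, 4.54% lower), with a median of -0.67 over the 8. The rises of SIP18 (99.7-fold in not2, 60.1-fold in wild type), GRE1 (77.2 and 52.0) and STF2 (8.0 and 5.78) were larger in not2. Those of HSP26 (6.68 and 34.5), DDR2 (12.3 and 18.4) and SPI1 (10.7 and 18.1) were smaller.

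After depletion, ccr4 differed from wild type more than any other null strain in the number of these genes called. Of the 8, 4 fell (27.1% of all genes called, 11.8% lower), and the median over the 8 was -1.65, against 0.06 over all genes. The choice drew on these wild-type arrays, where some of the 8 were high, so a fall was favoured in advance. The count and the median are therefore not support for the list. SIP18 fell by 4.60 ± 0.31 (adjusted p = 1.19e-08), with 1 of the 2 ccr4 arrays under the lower quartile of the tested genes, and its paralogue GRE1 fell by 3.56 ± 0.34 (adjusted p = 8.12e-07), 11.8-fold lower. SPG4 fell by 2.83 ± 0.58 (adjusted p = 0.00165) and HSP12 by 1.82 ± 0.62 (adjusted p = 0.0345). SPI1 was at -1.48 (adjusted p = 0.0577), STF2 at -0.78 ± 0.40 (adjusted p = 0.154), HSP26 at -0.52 ± 0.88 (adjusted p = 0.714) and DDR2 at -0.31 ± 0.58 (adjusted p = 0.743).

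The calls of SIP18 and GRE1 in ccr4 held on leaving out each of the 4 arrays. That of SPG4 was lost without ccr4 replicate 2 (-2.14, adjusted p = 0.0535). That of HSP12 was lost without ccr4 replicate 2 (-1.36, adjusted p = 0.268), without either wild-type array (adjusted p of 0.124 and 0.135), and in a fit without the caf130-labelled arrays (adjusted p = 0.0529). Both ccr4 arrays lay below all 9 other depletion arrays for 5 of the 8 genes (SIP18, GRE1, HSP12, SPG4 and SPI1), as they did for 13.0% of all genes.

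Other lists of genes were counted in ccr4 after depletion beside the 11.8% of all genes that were lower. Of 25 other stress-response genes, 13 fell and 0 rose (median -1.32). Among them PAI3, encoding a proteinase A inhibitor, read 4.84 and 4.08 in ccr4 and 7.72 and 7.75 in wild type (-3.27 ± 0.37, adjusted p = 9.11e-06). CTT1, the cytosolic catalase gene, fell by 3.17 ± 0.54 (adjusted p = 0.000376), the aldehyde dehydrogenase gene ALD3 by 2.91 ± 0.52 (adjusted p = 0.000544) and the peroxidase gene GPX1 by 2.54 ± 0.35 (adjusted p = 6.74e-05). Of the 3 other stationary phase genes, 2 fell: SPG1 read 4.21 and 4.07 in ccr4 and 7.41 and 7.26 in wild type (-3.19 ± 0.29, adjusted p = 3.81e-07). SPG3 fell by 0.88 ± 0.29 (adjusted p = 0.0307), a call lost without any 1 of the 4 arrays (adjusted p of 0.0948 to 0.156). Of 7 other heat shock and disaggregation genes only the Hsp70 gene SSA3 passed (-2.07 ± 0.34, adjusted p = 0.000305), and of 7 other hydrophilins only YNL190W (-2.24 ± 0.58, adjusted p = 0.00781), which lost its call without ccr4 replicate 2 (-1.11, adjusted p = 0.226) or wild-type replicate 1 (adjusted p = 0.0575).

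Of 28 measured regulators, 6 fell and 0 rose in ccr4 after depletion, where 27.1% of all genes were called and 11.8% were lower. RIM15, the kinase gene of the quiescence programme, was at 4.76 and 4.58 in ccr4 and 6.24 and 6.03 in wild type (-1.46 ± 0.33, adjusted p = 0.00349). IRA1, which encodes a GTPase activator that lowers Ras activity, fell by 1.99 ± 0.32 (adjusted p = 0.000219), and its paralogue IRA2 by 2.26 ± 0.27 (adjusted p = 1.35e-05) on its brightest probe set. The 11 probe sets of IRA2 gave differences from -2.26 to -0.21. TPK2, a catalytic subunit gene of protein kinase A, fell by 1.09 ± 0.36 (adjusted p = 0.0331), a call lost without any 1 of the 4 arrays (adjusted p of 0.0866 to 0.19). Of the factor genes MSN2 and MSN4, singled out after their values were seen, MSN2 was at 0.09 ± 0.29 (adjusted p = 0.854) and MSN4 fell by 0.88 ± 0.30 (adjusted p = 0.0361). The MSN4 call was lost without any 1 of the 4 arrays (adjusted p of 0.077 to 0.244).

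The caf1 depletion array, the only one of its group, had 2 of the 8 genes lower than wild type (13.4% of genes called, 5.36% lower). GRE1 fell by 1.95 ± 0.42 (adjusted p = 0.00668) and SIP18 by 1.62 ± 0.37 (adjusted p = 0.0102), and the SIP18 call was lost without wild-type replicate 2 (-1.73, adjusted p = 0.0529). SPG1 fell in caf1 too (-2.85 ± 0.36, adjusted p = 8.72e-05), at 4.49 on the caf1 array. The spread of this group is borrowed from the other groups.

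In not4 after depletion 1 of the 8 passed, where 12.1% of all genes were called and 6.22% were lower. SIP18 fell by 1.46 ± 0.31 (adjusted p = 0.00371), a call lost without wild-type replicate 1 (-1.35, adjusted p = 0.0532). In the caf130-labelled depletion arrays 0 of 8 passed in limma, and 0.0354% of all genes were called. Of the 8, 1 had an unadjusted p under 0.05, with no share of all genes counted at that level.

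In not2 after depletion 2 of the 8 rose above wild type, where 28.0% of all genes were called and 14% were higher. SPG4 rose by 2.22 ± 0.58 (adjusted p = 0.00753) and GRE1 by 1.32 ± 0.34 (adjusted p = 0.00689). Both calls were lost without wild-type replicate 2 (SPG4, adjusted p = 0.0601; GRE1, adjusted p = 0.076), and that of GRE1 also without not2 replicate 2 (adjusted p = 0.0563). The not2 arrays were above all other depletion arrays for SIP18, GRE1 and SPG4, as for 9.09% of all genes. SPG1, which was low in ccr4, read 10.10 and 9.68 in not2 and 7.41 and 7.26 in wild type (2.55 ± 0.29). Of 28 regulators 9 rose in not2 and 0 fell, among them RAS2 (1.68 ± 0.32, adjusted p = 0.000636), the endosulfine gene IGO1 (1.35 ± 0.30, adjusted p = 0.00238), SKO1 and RPH1, and the hydrophilin gene WWM1 fell by 1.86 ± 0.30 (adjusted p = 0.000149). SKO1 was not called without replicate 2 of either group (adjusted p of 0.0663 and 0.068), nor RPH1 without wild-type replicate 1 (adjusted p = 0.081).

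**Figure D3:**
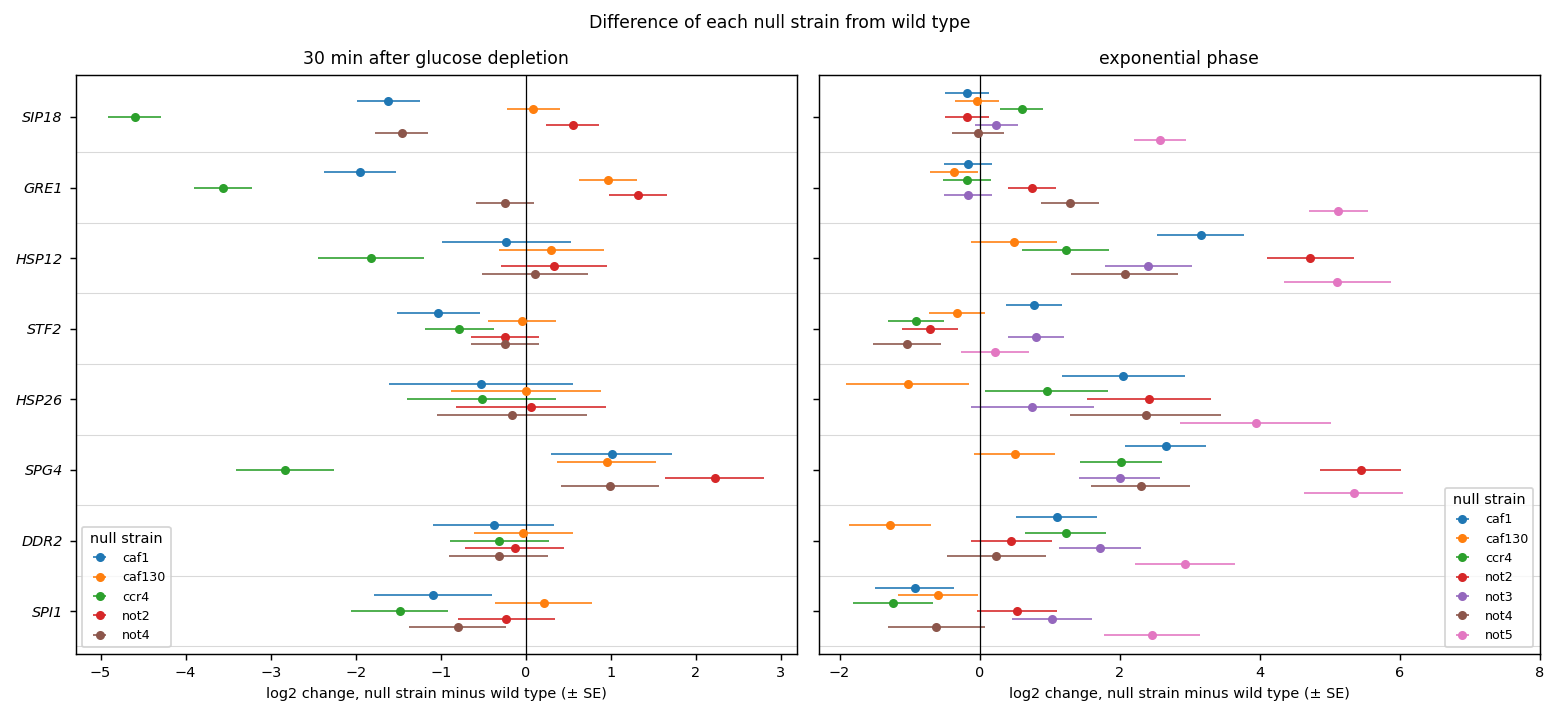
Log2 difference of each null strain from wild type (x axis, null strain minus wild type, bars 1 SE of the model) for the 8 genes after glucose depletion (left) and in exponential phase (right). After depletion the ccr4 points for SIP18 (-4.60), GRE1 (-3.56) and SPG4 (-2.83) lie far to the left, and in exponential phase the not5 points lie to the right for all genes but STF2.

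In exponential phase the single not5 array stood out most. Compared with wild type, 7 of the 8 genes rose, where 5.23% of all genes were called and 3.71% were higher, and the median over the 8 was 3.43 against -0.06 over all genes. The wild-type arrays used here were part of a contrast known when the genes were listed, which favoured a rise in advance. GRE1 rose by 5.12 ± 0.42 (adjusted p = 5.23e-07) and its paralogue SIP18 by 2.58 ± 0.37 (adjusted p = 0.00028). SPG4 gained 5.34 ± 0.71 (adjusted p = 0.000163) and HSP12 gained 5.11 ± 0.76 (adjusted p = 0.000311). These 4 calls held without either wild-type array. SIP18, GRE1 and SPG4 were under the lower quartile of the tested genes on both wild-type arrays, so the sizes of these differences rest on dim signals.

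HSP26 (3.94 ± 1.08, adjusted p = 0.0376), DDR2 (2.93 ± 0.71, adjusted p = 0.0184) and SPI1 (2.46 ± 0.69, adjusted p = 0.0428) rose in not5 too, but none was called without wild-type replicate 1 (adjusted p of 0.314, 0.222 and 0.32). HSP26 and SPI1 also lost their calls with the spread of exponential arrays only (adjusted p = 0.0655 each) and without the caf130-labelled arrays (adjusted p of 0.0668 and 0.074). STF2 differed by 0.22 ± 0.49 (adjusted p = 0.887). The not5 array was the highest of the 14 exponential arrays for 6 of the 8 genes, as it was for 6.06% of all genes. With 1 not5 array, a property of that culture and a property of the strain cannot be told apart.

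Other genes of the stress response were counted in not5 as well. Of 25 others, 4 rose and 0 fell (median 0.99): ALD3 by 2.90 ± 0.63 (adjusted p = 0.00965), RTN2, YGP1 and MSC1. INH1, the ATP synthase inhibitor gene, rose by 2.79 ± 0.57 (adjusted p = 0.00577), and the regulators PDE1 and IGO1 rose by 1.56 ± 0.39 (adjusted p = 0.0229) and 1.50 ± 0.37 (adjusted p = 0.0202). None of these 7 genes was called without wild-type replicate 1 (adjusted p of 0.0785 to 0.38). None of the 7 other hydrophilins or the 7 other heat shock genes passed in limma (1 and 2 at an unadjusted p under 0.05).

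In not2 in exponential phase SPG4 was 5.44 and HSP12 4.72 above wild type on the log2 scale, where 22.6% of all genes were called, 15.5% higher. This contrast was known when the genes were listed, so nothing is read from that count. The paralogues SIP18 and GRE1, both raised in not5, differed in not2 by -0.19 and 0.75.

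In caf1 in exponential phase 2 of the 8 genes rose (4.46% of genes called, 3.39% higher). HSP12 rose by 3.16 ± 0.62 (adjusted p = 0.00597) and SPG4 by 2.66 ± 0.58 (adjusted p = 0.0131). Both calls were lost without caf1 replicate 2 (adjusted p of 0.116 and 0.176) and without wild-type replicate 1 (adjusted p of 0.117 and 0.143). HSP26 was at 2.05 ± 0.88 (adjusted p = 0.202). In ccr4 only SPG4 rose, by 2.02 ± 0.58 (adjusted p = 0.0401), where 6.77% of genes were called and 4.1% were higher, and that call was lost without any 1 of the 4 arrays (adjusted p of 0.0624 to 0.337).

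In not3 only HSP12 rose, by 2.41 ± 0.62 (adjusted p = 0.0392; 3.06% of genes called, 2.33% higher), and the value was set by single arrays. It was 0.87 (adjusted p = 0.462) without not3 replicate 1, 3.96 (adjusted p = 7.25e-05) without not3 replicate 2 and 1.66 (adjusted p = 0.349) without wild-type replicate 1, and with the replicate number as a block its adjusted p was 0.0507. On the single not4 array 5 of 8 had an unadjusted limma p under 0.05, a level at which the share of all genes was not counted. At the adjusted threshold 0 of 8 passed, where 8.22% of genes were called. SPG4 came nearest (2.30 ± 0.71, adjusted p = 0.0514), followed by GRE1 (1.29 ± 0.42, adjusted p = 0.0626). The hydrophilin gene YNL190W read 5.10 on the not4 array and 10.37 and 9.88 in wild type (-5.02 ± 0.70, adjusted p = 0.000267). In the caf130-labelled exponential arrays 0 of 8 passed, where 0.672% of genes were called, with differences from -1.28 (DDR2) to 0.50 (SPG4). Of the 8, 1 had an unadjusted p under 0.05, with no share of all genes counted at that level.

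The not strains and the strains lacking the Ccr4 or Caf1 enzyme were also set against each other in exponential phase, without the wild-type arrays. Because not2 was among the arrays the genes were chosen on, the mean of all 4 not strains against that of caf1 and ccr4 is given as values only: GRE1 1.93, SPI1 1.94, SPG4 1.43 and HSP12 1.39 (20.2% of all genes called, 12.6% higher). These are the genes called in that fit, and the other 4 lay lower. The median over the 8 was 1.12, against 0.09 over all genes. With not2 left out, a comparison chosen after seeing the data, 3 of the 8 genes rose in not3, not4 and not5, where 10.5% of all genes were called and 6.03% were higher. GRE1 rose by 2.26 ± 0.25 (adjusted p = 6.84e-06), SPI1 by 2.04 ± 0.41 (adjusted p = 0.00333) and SIP18 by 0.72 ± 0.22 (adjusted p = 0.0418). HSP12 was at 1.01 ± 0.45 (adjusted p = 0.157) and SPG4 at 0.87 ± 0.42 (adjusted p = 0.199). None of the 8 was called once the single not5 array was left out too (GRE1 0.74, adjusted p = 0.0696; SPI1 1.29, adjusted p = 0.0566; SIP18 -0.10, adjusted p = 0.804). The SIP18 call was also lost on leaving out any 1 of 5 of the 6 arrays of caf1, ccr4 and not3 (adjusted p of 0.0534 to 0.144).

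Both exponential not3 arrays and both exponential wild-type arrays differed from each other across the 8 genes. In not3, replicate 2 was below replicate 1 for all 8 genes, by a median of -2.29 and by -4.84 for HSP26, and 1 of 25 other stress-response genes was higher in replicate 2 (median -1.25). In wild type, replicate 2 was above replicate 1 for all 8 genes, by a median of 1.12 and by 2.30 for HSP26, and 23 of the 25 others were higher too (median 0.69). The median over all genes was 0.02 in not3 and -0.07 in wild type. The part of this spread in the exponential comparisons is shown by the values without each array, given above.

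**Figure D4:**
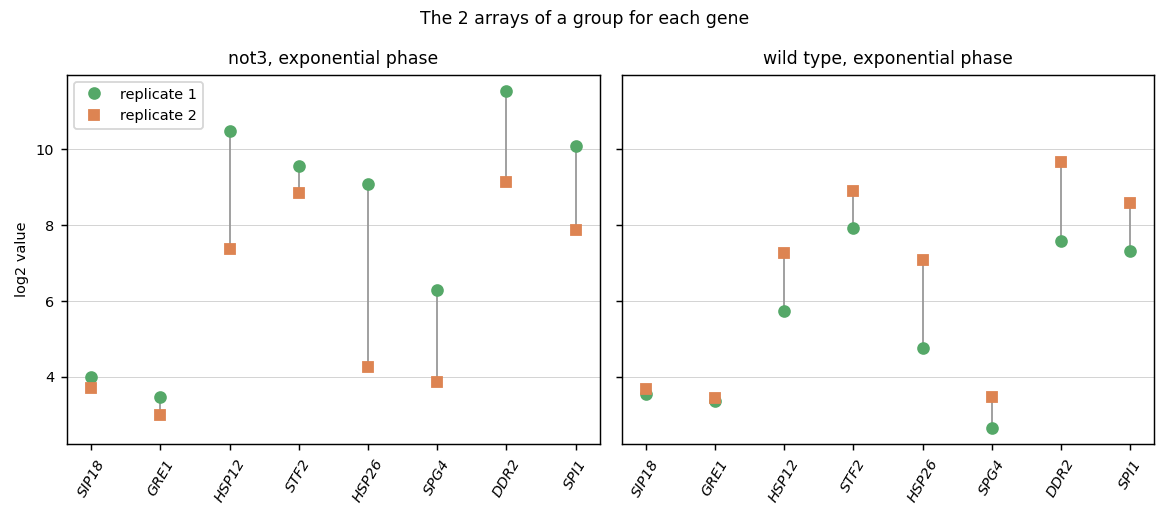
Log2 level (y axis) of the 8 genes on replicate 1 (circles) and replicate 2 (squares) of the not3 (left) and wild-type (right) groups in exponential phase. Replicate 2 is the lower one for all 8 genes in not3 and the higher one for all 8 in wild type.

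The 3 paralogues outside the list were all measured. TMA10, the paralogue of STF2, read 9.13 and 8.68 in ccr4 and 9.93 and 9.72 in wild type after depletion (-0.92 ± 0.62, adjusted p = 0.29), and 10.83 and 10.99 in not2. HOR7, the paralogue of DDR2, differed from wild type by between -0.41 and 0.13 after depletion and was not called in any strain. SED1, the cell wall paralogue of SPI1, rose in caf1 after depletion (0.93 ± 0.30, adjusted p = 0.0457), where SPI1 was at -1.09 ± 0.69, and that call was lost without either wild-type array (adjusted p of 0.0976 and 0.193).

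As a description across the 14 group means, which share the difference between the 2 conditions, the 28 pairs of the 8 genes correlated with Pearson's r of 0.735 to 0.965 (median 0.868). Within the 8 exponential groups alone r ran from -0.0408 to 0.972 (median 0.627), and within the 6 depletion groups from 0.215 to 0.946 (median 0.841). SIP18 and GRE1 stood at 0.949 over all groups, 0.886 in exponential phase and 0.946 after depletion. No p-value is given for these, since the means share strains and conditions.

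Among all other genes, the pattern nearest to the mean of the 8 (each centred and scaled over the 14 group means) was that of FMP16, with r = 0.977 over all groups, 0.857 in exponential phase and 0.968 after depletion. MBR1 (0.969), TKL2, a transketolase gene (0.968), HOR7 (0.968) and YBL029C-A (0.967) came next. For single genes the nearest were SHH3 for SIP18 (0.991), HBT1 for GRE1 (0.963), YGP1 for HSP12 (0.958), the hydrophilin gene RTC3 for STF2 (0.950), GPG1 for HSP26 (0.984), CYB2 for SPG4 (0.973), GOR1 for DDR2 (0.971) and PIC2 for SPI1 (0.974). Under quantile normalization SOL4 was nearest to STF2 (0.947) and RTN2 to SPI1 (0.968), and GRE3 took the place of HOR7 among the 5 nearest to the mean. FMP16, chosen for this pattern and so not tested, differed from wild type by -2.73 in ccr4 after depletion and by 2.29 in not5 in exponential phase.

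All 8 genes are short. In the RefSeq R64 annotation they span 186 (DDR2) to 645 bases (HSP26), below the median of 1249 bases over the 5486 tested genes with a length, and 8 of 8 lie under it. SIP18 lies beside PAI3 in that annotation, and PAI3, singled out after its values were seen, showed a like pattern on depletion. Its change was 3.82 ± 0.37 in not2 and 0.55 ± 0.37 in ccr4, and the ccr4 response minus that of wild type was -3.95 ± 0.52. In growing not5 cells PAI3 was at 1.42 ± 0.45 against wild type and was not called, unlike SIP18. The neighbour of SIP18 on the other side, YMR175W-A, was at 0.48 ± 0.27 in not2 and -0.58 ± 0.27 in ccr4, with a difference in response of -0.78 ± 0.38. Of the 13 measured neighbours of the 8 genes, 2 fell and 3 rose in ccr4 after depletion, where 27.1% of all genes were called.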

How the data were processed

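Total RNA from yeast was extracted with acid phenol and hybridised to Affymetrix arrays, per the labels. The values the authors deposited are log2 levels of 9275 probe sets on 25 arrays. The log base was inferred from the values (1.36 to 13.94). How they were background-corrected and normalized is not given in the sources used here, so values were used as deposited and detection calls were not used here. The number of arrays limits the precision.

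Gene names come from the platform annotation, with symbols updated to RefSeq R64. Of them 6504 carried 1 gene symbol, 328 several and 2443 none; only the first kind was used. Where a gene had several sets, the one with the highest mean was taken, which leaves 5656 genes. Groups came from the sample titles (14 groups, 11 of 2 arrays and 3 of 1). The test was limma 3.58.1 (R 4.3.3) on group means over the 25 arrays, with eBayes trend by intensity (residual degrees of freedom 11, prior 9.03), and it was tested on simulated data. The 3 groups with a single array take their spread from the rest. P-values were adjusted by Benjamini-Hochberg over the 5656 genes within each of 24 comparisons and called at 0.05. Comparisons with wild type share the same wild-type arrays.

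The 8 genes and the lists of other hydrophilins (7 genes), other stationary phase genes (3), other heat shock and disaggregation proteins (7), regulators (29 listed, 28 measured), other stress-response genes (25), ATP synthase inhibitor partners (2) and paralogues (3) were chosen with earlier results of these data known. The text names all 8 genes, the deleted genes and TRP1, the paralogues, up to 4 called genes per list with the greatest change, and the genes nearest in pattern. Replicate numbers did not pair the arrays: over 55 pairs of groups the correlation of same-numbered deviations ran from -0.552 to 0.473, with a median of -0.0161. Alternatives were quantile normalization, a filter at the 25th percentile of gene means, the mean of probe sets, no intensity trend, the spread of 1 condition only, a replicate block, fits without the caf130-labelled arrays and without each array in turn, and, chosen after seeing the data, fits of the not strains without not2, not4 or not5. Differences in response between strains and the 4-strain not average were fitted but are given as values only. Python 3.11.15 with pandas 2.3.3 and numpy 2.4.6 made the tables, and matplotlib 3.10.9 drew the plots. Promoter and protein sequences were not analysed here.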

Additional observations from a re-analysis of the deposited data

Results flagged for a closer look

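The response to glucose depletion in ccr4 minus that in wild type, on the log2 scale, was -5.21 for SIP18, -3.37 for GRE1, -3.04 for HSP12 and -4.85 for SPG4. Genes were flagged in this section by the call threshold in the fit of the difference, so the flag is not support for them. Values of the other genes are given above. The wild-type response was known when the genes were listed, which favours a smaller response elsewhere, so these are values only.

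The not2 response was also smaller than the wild-type response for HSP12 (-4.39) and SPG4 (-3.22), given as values for the same reason and because the growing not2 arrays were used in the choice too. In both genes the not2 exponential arrays were far above wild type, at 10.98 and 11.49 against 5.75 and 7.27 for HSP12 and at 7.83 and 9.20 against 2.67 and 3.48 for SPG4.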

How the results depend on the processing

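Of 128 differences of the 8 genes in the 16 comparisons that hold no contrast the genes were chosen on, 55 were called. The share of all genes called in these comparisons ran from 0.0354% to 50.1%. Many of the 16 share arrays with those contrasts or measure the same depletion response, so the 55 is used only to count lost calls. Of the 55, 38 were called in every setting run and 17 not in at least 1, and 0 changed sign. The size of a difference could move only under quantile normalization or on leaving out 1 of the compared arrays, so the other settings could not turn a sign. Leaving out 1 array ended each of the 17. On leaving out each array, the number of the 8 genes called ran from 0 to 2 in caf1, was 0 to 0 in ccr4, 0 to 4 in not3 and 4 to 7 in not5 in exponential phase. After depletion it ran from 1 to 2 in caf1, 2 to 4 in ccr4, 0 to 2 in not2 and 0 to 1 in not4. For the differences given as values only, no count of called genes is listed. In exponential phase the 1 gene called in ccr4 became 0 with the spread of exponential arrays only and without the caf130-labelled arrays. The 1 in not3 became 0 under quantile normalization, under the replicate block and without the caf130-labelled arrays. The 0 in not4 became 1 with dim probe sets filtered and with the spread of exponential arrays only. In fits chosen after seeing the data, the not strains without not2 were set against caf1 and ccr4. There 3 of the 8 genes rose, where 10.5% of all genes were called and 6.03% were higher. The 3 became 0 without not5 too, and 2 to 5 without 1 array of not3, caf1 or ccr4. No share of all genes is given for those smaller fits, so nothing is read from their counts. The replicate block ended 1 of 33 calls it could test, HSP12 in not3. For these changes the cause was not tested. Quantile normalization moved the median of all genes by over 0.1 in 6 comparisons, the most for depletion against exponential phase in ccr4 (-0.19), and turned no called gene. The planned description of promoters and proteins was not run.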
